A study of Mus musculus with 6 samples.

Results

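Arterial endothelial identity genes were described here through 10 genes chosen by name, Bmx, Mecom, Pcsk5, Sema3g, Fbln2, Fbln5, Htra1, Dkk2, Eln and Mgp, out of 24951 genes in the deposited counts. Each was taken as the row of the count table carrying its symbol, and all 10 were present and passed the filter on low counts, as did 14934 genes in all. The RNA came from CD31-selected cells of mouse lung on postnatal day 5, in libraries of 3 control and 3 mutant pups. Control pups carried floxed Smad4 alleles (Smad4 f/f) without Cre, and mutant pups carried the same floxed alleles with Cdh5-CreERT2, a Cre recombinase driven by an endothelial cadherin promoter and activated by tamoxifen. The floxed alleles are thus shared by both groups, Cre is found in the mutants alone, and no source used here gives the dose or day of tamoxifen. One sentence of the labels' protocol calls the mice HHTf/f and HHTiECKO, which the labels do not explain.

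Arterial endothelial cells are set apart from those of veins and capillaries by Notch signaling, by transcription factors such as those encoded by Sox17 and Mecom, and by a matrix rich in elastic fibers. SMAD4 is the partner through which receptor-activated SMADs of the BMP and TGF-beta branches act, and loss of that signaling in endothelium is a known setting for arteriovenous malformations, in which arteries drain directly into veins. In the lung, several of the 10 genes are not made by arterial endothelium alone: elastin, the fibulins and matrix Gla protein are also products of smooth muscle cells and fibroblasts.

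The library labels were checked on the deleted gene. Smad4 stood at 188, 177 and 181 CPM, read counts scaled by library size, in the controls and at 88.8, 72.9 and 94.2 CPM in the mutants. Here and below, values of a group are listed for replicates 1, 2 and 3 in that order. Assigned reads ranged from 14093564 to 21113926 per library, the lowest being control replicate 2. The defining endothelial genes Cdh5 and Pecam1, which encode VE-cadherin and CD31, were abundant in both groups, with mean CPM of 2185 ± 112 and 1569.97 ± 91.3 in controls and 2438 ± 69.6 and 1719 ± 21.8 in mutants (SD, n = 3 each). X- and Y-linked transcripts marked 1 library of each group as male and 2 as female. Replicates are described in the labels as independent biological samples.

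Upstream sequence is shown for Pcsk5, Bmx and Sema3g, the members with a RefSeq promoter entry whose 3 mutant libraries all lay below the 3 control libraries. Each is the 250 bases before the RefSeq start site on GRCm38.p6, read 5′ to 3′ on the strand of the gene, and capitals mark matches on either strand to any of 6 motifs: CAGAC (SMAD element), GGCGCC (GC-rich SMAD element), TGGGAA (RBPJ), ACCGGAAG (ETS), TGTTTAC (forkhead) and AGGTCA (core element of retinoid receptors). No searched motif overlapped another in these 3 windows.
Pcsk5, chr19:17837633-17837882, minus strand: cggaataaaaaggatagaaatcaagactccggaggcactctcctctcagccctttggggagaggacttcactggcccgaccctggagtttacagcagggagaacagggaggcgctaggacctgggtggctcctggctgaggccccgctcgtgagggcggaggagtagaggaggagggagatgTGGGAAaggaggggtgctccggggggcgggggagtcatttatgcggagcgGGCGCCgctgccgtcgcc
Bmx, chrX:164258194-164258443, minus strand: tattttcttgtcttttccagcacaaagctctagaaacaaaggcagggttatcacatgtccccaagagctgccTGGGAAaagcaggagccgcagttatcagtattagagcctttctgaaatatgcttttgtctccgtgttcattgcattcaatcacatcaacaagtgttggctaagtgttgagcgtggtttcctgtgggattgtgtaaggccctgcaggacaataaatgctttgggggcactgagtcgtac
Sema3g, chr14:31217623-31217872, plus strand: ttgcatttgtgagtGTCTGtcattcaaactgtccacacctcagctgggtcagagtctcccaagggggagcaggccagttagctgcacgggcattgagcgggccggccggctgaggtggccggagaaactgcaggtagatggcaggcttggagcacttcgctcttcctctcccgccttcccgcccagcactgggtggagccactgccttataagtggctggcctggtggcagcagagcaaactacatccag
The Pcsk5 window held 1 GC-rich SMAD element 18 bases and 1 RBPJ motif 68 bases before the start, counted to the first base of each motif. The Bmx window held 1 RBPJ motif at 178 bases, and the Sema3g window 1 SMAD element, in reverse orientation, at 236 bases. Among all 32851 promoter windows of the same length, 42.2% held CAGAC, 9.59% GGCGCC, 21.6% TGGGAA, 1.72% ACCGGAAG, 3.17% TGTTTAC and 14% AGGTCA on either strand. RefSeq entries were matched for 8 of the 10 members, in 10 windows, and not for Eln and Mgp. In the windows of Fbln2, Htra1 and Dkk2 none of the 6 motifs matched, while both Mecom windows held CAGAC and 1 of them AGGTCA. Fbln5, which did not pass the test described below, held GGCGCC in both of its windows, CAGAC in 1 and TGGGAA in the other. For neither Fbln5 window was the sequence after the start found in an annotated transcript, unlike for the windows of the other members. The Fbln5 window with CAGAC, both Mecom windows and the Fbln2 window lie inside the annotated genes, and the Sema3g and Htra1 windows run partly into them. The motif matches describe letters in a window and were not tested for binding.

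The comparison of mutant with control libraries asked which of the arterial genes differed after endothelial deletion of Smad4. Pcsk5, a proprotein convertase gene, was lower in the mutants, and it was the only member of the 10 that changed at an adjusted p under 0.05. Bmx, Sema3g and Eln had all 3 mutant libraries below all 3 controls without passing the test. Mecom, Dkk2, Fbln2, Fbln5, Htra1 and Mgp overlapped between groups. The share of members called, 1 of 10, is read against 3.27% called among all tested genes (1.34% called lower and 1.93% higher), and the 4 of 10 members with no overlap, all lower in the mutants, against 20.6% of all tested genes with no overlap (9.04% with the mutants lower). In 6 of the 10 members the log2 fold change was below 0, as in 50.5% of all tested genes, and the median was -0.12 over the members and -0.0024 over all tested genes. In bulk RNA of selected cells, fewer arterial cells and less of a transcript per cell cannot be told apart.

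**Figure D1:**
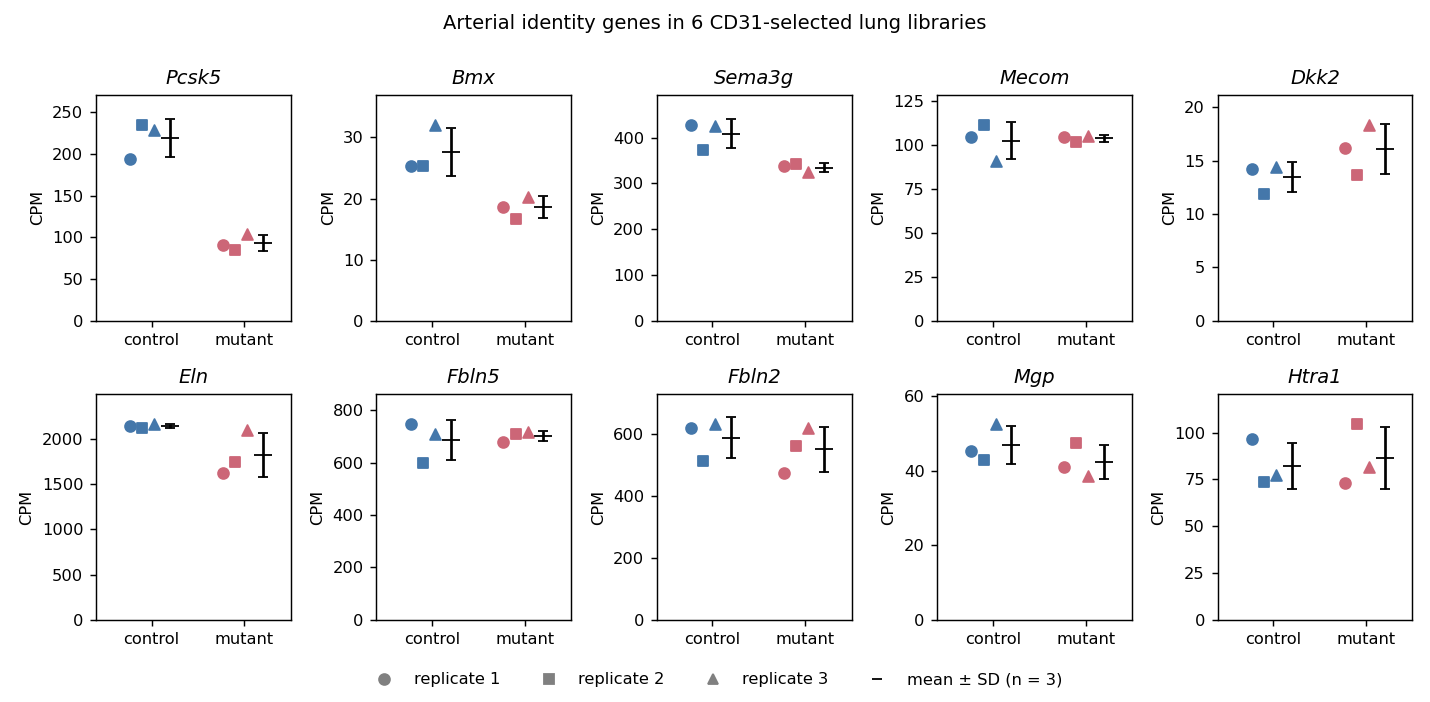
Level of each of the 10 genes in CPM (vertical axes from 0) in the 3 control (blue) and 3 mutant (red) libraries, with the group mean ± SD (n = 3) in black and the replicate number given by the symbol. Pcsk5 in the mutants sits at 84.3 to 104 CPM, below the controls at 194 to 235 CPM, whereas Mecom, Dkk2, Fbln5, Fbln2, Mgp and Htra1 overlap between groups.

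Among genes for enzymes and signaling proteins, Pcsk5 (ENSMUSG00000024713.16, chromosome 19 from 17432319 to 17837632, minus strand, GRCm38) encodes a protease that cleaves secreted precursors, including members of the TGF-beta superfamily. Its level was 194, 235 and 228 CPM in controls and 91.1, 84.3 and 104 CPM in mutants, from 1343 to 4735 reads per library. The highest mutant library was thus below the lowest control, and relative to the control mean of log2 CPM the mutants stood at -1.26, -1.37 and -1.07. Its log2 fold change came to -1.23, SE 0.11 (Benjamini-Hochberg adjusted p = 0.000505 by edgeR's quasi-likelihood test), which is 2.35-fold lower. In order of p, Pcsk5 was 12th of the 14934 tested genes and Smad4, the deleted gene, was 18th. The call of Pcsk5 held in each of the 13 alternative fits, with an adjusted p of at most 0.00567, reached without mutant replicate 2.

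Bmx (ENSMUSG00000031377.11, chromosome X from 164192842 to 164258193, minus strand) encodes a cytoplasmic tyrosine kinase of the Tec family found in arterial endothelium. It stood at 25.4, 25.3 and 32.1 CPM in controls and at 18.6, 16.7 and 20.3 CPM in mutants. The groups did not overlap, and control replicate 3 was the highest of all 6 libraries. On the log2 scale the fold change was -0.57 (SE 0.14), with a 95% interval, not adjusted for the number of genes, of -0.88 to -0.27. Bmx did not pass the test (edgeR adjusted p = 0.0519). It passed with upper-quartile factors (adjusted p = 0.0438), when low counts were not filtered (0.0302) and in DESeq2 (0.00892), so that the count of members called was 2 in those fits, while with any single library left out the adjusted p was 0.0534 to 0.232.

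Sema3g (ENSMUSG00000021904.6, chromosome 14 from 31217860 to 31230352, plus strand) encodes a secreted class 3 semaphorin, a ligand of neuropilins, made by arterial endothelium. Its level was 429, 372 and 425 CPM in controls and 337, 343 and 324 CPM in mutants. All mutant libraries lay below the lowest control, and the mutants were close to each other, with an SD of 9.38 CPM against 31.4 CPM in controls. The log2 fold change of -0.29 (SE 0.09, 95% interval -0.48 to -0.10) did not pass the test (edgeR adjusted p = 0.125), which held in all alternative fits.

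Dkk2 (ENSMUSG00000028031.6, chromosome 3 from 132085292 to 132180304, plus strand) encodes a secreted modulator of Wnt signaling that binds LRP coreceptors. It was at 14.2, 11.9 and 14.4 CPM in controls and 16.2, 13.7 and 18.4 CPM in mutants. Mutant replicate 2 lay within the range of the controls, so the groups overlapped. Dkk2 had the lowest level of the 10 per length of exon, with 167 to 377 reads per library, and its log2 fold change of 0.25 had a 95% interval of -0.09 to 0.59 (edgeR adjusted p = 0.511). A rise of 1.5-fold or a small decrease both lie in that interval.

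Mecom (ENSMUSG00000027684.16, chromosome 3 from 29951296 to 30548008, minus strand), which encodes the zinc finger transcription factor EVI1 and its longer PRDM form, showed similar values in both groups. Its level was 104, 111 and 90.8 CPM in controls and 104, 101 and 105 CPM in mutants. The mutant values all lay inside the range of the controls. The log2 fold change was 0.02 with a 95% interval of -0.19 to 0.23 (edgeR adjusted p = 0.945), so that the unadjusted interval does not reach the size seen for Pcsk5. Counts over the whole gene do not separate the forms of Mecom, and Mecomos, an antisense gene annotated over it, is not a row of the table.

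The other 5 members encode matrix proteins or a protease that acts in the matrix, and none of them passed the test. Eln (ENSMUSG00000029675.12, chromosome 5 from 134702593 to 134747323, minus strand) encodes tropoelastin, the core of elastic fibers, and had the highest level of the 10 both in CPM and per length. It stood at 2144, 2116 and 2165 CPM in controls and at 1625, 1738 and 2090.4 CPM in mutants. The controls were nearly equal, with an SD of 24.6 CPM, while the mutants spread more widely, with an SD of 243 CPM, and mutant replicate 3 came close to the lowest control. The log2 fold change was -0.24 (SE 0.10), with a 95% interval of -0.46 to -0.02 (edgeR adjusted p = 0.308). Leaving out mutant replicate 3 gave -0.35 (adjusted p = 0.0785), and leaving out mutant replicate 1 gave -0.17 (adjusted p = 0.608). Over the 6 fits without a library the edgeR adjusted p of Eln was 0.0785 to 0.718.

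Fbln5 (ENSMUSG00000021186.9, chromosome 12 from 101746565 to 101819055, minus strand) encodes fibulin-5, which binds tropoelastin and is needed for elastic fiber assembly. It was at 749, 599 and 711 CPM in controls and 679, 709 and 717 CPM in mutants. The mutant libraries lay between the lowest and the highest control, and the log2 fold change of 0.03 had a 95% interval of -0.18 to 0.25 (edgeR adjusted p = 0.921). Fbln2 (ENSMUSG00000064080.12, chromosome 6 from 91212455 to 91272540, plus strand) encodes fibulin-2, a binding partner of elastin and basement membrane proteins. Its level was 617, 512 and 633 CPM in controls and 472, 561 and 617 CPM in mutants. Only mutant replicate 1 was outside the control range, and the log2 fold change of -0.09 had a 95% interval of -0.36 to 0.17 (edgeR adjusted p = 0.779).

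Mgp (ENSMUSG00000030218.2, chromosome 6 from 136872435 to 136875823, minus strand) encodes matrix Gla protein, an inhibitor of vascular calcification that also binds BMPs. It stood at 45.4, 42.8 and 52.6 CPM in controls and 41.0, 47.5 and 38.6 CPM in mutants. Mutant replicate 2 exceeded control replicates 1 and 2, and the log2 fold change was -0.15 with a 95% interval of -0.41 to 0.11 (edgeR adjusted p = 0.625). Htra1 (ENSMUSG00000006205.13, chromosome 7 from 130936111 to 130985660, plus strand) encodes a secreted serine protease of the extracellular matrix. It was at 96.4, 73.4 and 77.3 CPM in controls and 73.1, 105 and 81.5 CPM in mutants. The highest and the lowest library were both mutants, and the log2 fold change was 0.07 with a 95% interval of -0.27 to 0.41 (edgeR adjusted p = 0.887). The annotated Fgfr2 gene overlaps Htra1 on the other strand, and since the use of strand in counting is not given, reads of the shared bases may not be told apart.

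**Figure D2:**
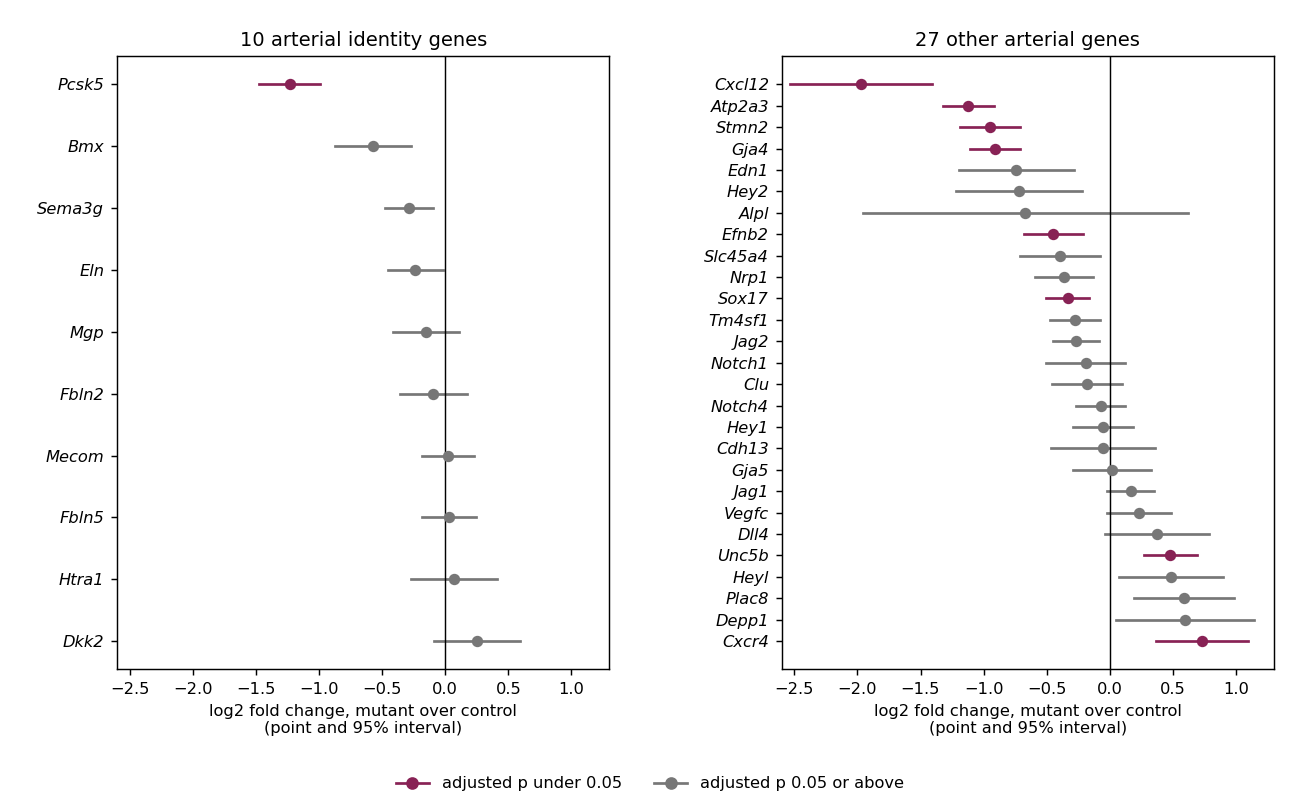
Log2 fold change of mutant over control (point) with its unadjusted 95% interval (line) for the 10 members (left) and 27 other arterial genes (right), with dark red for an adjusted p under 0.05. Pcsk5 at -1.23 is the only member in dark red, and 8 of the other arterial genes are, 6 to the left and 2 to the right of 0.

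Levels of the genes were compared with each other per length, as CPM per kilobase of exon. In controls the order was Eln with 264 ± 3.04, Fbln5 with 99.4 ± 11.3, Fbln2 with 92.2 ± 10.4, Sema3g with 90.02 ± 6.92, Mgp with 39.5 ± 4.28, Htra1 with 28.6 ± 4.28, Pcsk5 with 15.2 ± 1.55, Bmx with 8.92 ± 1.27, Mecom with 8.22 ± 0.841 and Dkk2 with 3.64 ± 0.376 (SD, n = 3). Of the 9 pairs of neighbors in this order, 3 had overlapping ranges, namely Fbln5 with Fbln2, Fbln2 with Sema3g, and Bmx with Mecom. In the mutants Mecom, at 8.34 ± 0.153, came above both Pcsk5, at 6.45 ± 0.698, and Bmx, at 5.99 ± 0.581. The libraries of Mecom overlapped neither of the others, while Pcsk5 and Bmx overlapped each other. The order was otherwise the same, with Eln at 224 ± 29.96 and Dkk2 at 4.34 ± 0.635 CPM per kilobase at its ends.

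**Figure D3:**
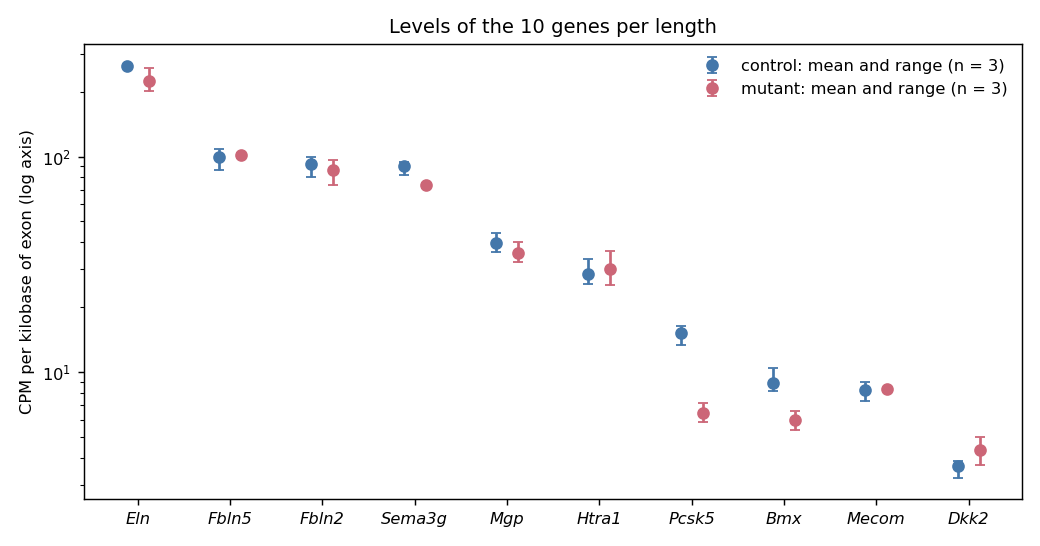
Mean level of each gene in CPM per kilobase of exon (log axis) in control (blue) and mutant (red) libraries, with lines from the lowest to the highest of 3 libraries. Eln is highest and Dkk2 lowest in both groups, and Pcsk5 moves from above Bmx and Mecom in controls (15.2) to the level of Bmx in mutants (6.45).

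By profile across the 6 libraries, the 2 genes most like Pcsk5 among 10468 others (those averaging 3 or more in log2 CPM) were Zfp697, a zinc finger gene, and Cyyr1, which encodes a small membrane protein. Likeness was the root mean square difference between log2 CPM values, each taken relative to its control mean, and it was 0.067 for Zfp697 and 0.15 for Cyyr1. Zfp697 went from 23.5 ± 2.56 to 9.91 ± 1.47 CPM and Cyyr1 from 232 ± 9.2 to 107 ± 21.5 CPM (SD, n = 3 each). Their log2 fold changes, -1.24 and -1.12, are given as a description with no test, since both genes were chosen for their likeness to Pcsk5.

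Other arterial genes were taken from a list of 27 that holds none of the 10. Of these, 6 fell, 2 rose and 19 did not pass the test, and 18 showed no overlap between groups. The called share was 29.6%, against 3.27% of all tested genes, of which 20.6% showed no overlap. A high share was not particular to arterial genes. Among 10 general capillary genes 50% were called and 9 showed no overlap, and among 10 aerocyte genes 40% were called and 4 showed no overlap. The list of 27, like the members, was chosen with earlier results of these data known. Log2 fold changes were below 0 in 18 of the 27 and above 0 in 9, with a median log2 fold change of -0.19. The genes of the list with the smallest p were Atp2a3, a calcium pump gene, with a log2 fold change of -1.12, Gja4, a connexin gene of arterial endothelium, with -0.91, Stmn2, a tubulin-binding protein gene, with -0.95, and Cxcl12, a chemokine gene, with -1.97 (edgeR adjusted p = 0.000262, 0.000651, 0.00139 and 0.00643). Atp2a3 was at 381, 349 and 399 CPM in controls and 165, 168 and 187 CPM in mutants, a fold of 2.17 near that of Pcsk5. The remaining 4 called genes, named here after their values were seen, had adjusted p of 0.0216 to 0.0473. They were Sox17, a transcription factor gene, with a log2 fold change of -0.34, the ephrin ligand gene Efnb2 with -0.45, the netrin receptor gene Unc5b with 0.48 and the Cxcl12 receptor gene Cxcr4 with 0.73. The count of 8 was 4, with 4 lower and 0 higher, when any control library or mutant replicate 2 was left out, and 5 with sex as a covariate. Atp2a3, Gja4 and Stmn2 stayed called in every alternative fit, and the call of Cxcl12 ended only without control replicate 1 (adjusted p = 0.0501). The call of Sox17 ended in every fit without a library (0.0658 to 0.16), those of Unc5b and Cxcr4 in each such fit other than that without mutant replicate 3 (up to 0.112 and 0.13), and that of Efnb2 without control replicate 2 or 3 or either of mutant replicates 2 and 3 (up to 0.204). With sex as a covariate Sox17 (0.0874), Efnb2 (0.0658) and Cxcr4 (0.0741) were not called, and in limma-voom Cxcr4 (0.0502) was not.

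Elastic fiber genes outside the members, which include the fibrillins, lysyl oxidases, latent TGF-beta binding proteins and microfibril-associated proteins, were near 0 as a list. Among all tested genes 3.27% were called and 20.6% showed no overlap. Of the 20 on this list, 1 fell, 0 rose and 19 did not pass, with a median log2 fold change of -0.025 and 4 showing no overlap. The one that fell was Mfap2, which encodes a microfibril component, at 119 ± 10.4 CPM in controls and 85.8 ± 8.01 CPM in mutants, -0.48 on the log2 scale (edgeR adjusted p = 0.031). The call was lost on leaving out control replicate 1 (adjusted p = 0.0756), control replicate 3 (0.0739), mutant replicate 1 (0.1) or mutant replicate 2 (0.148). Ltbp4 and Fbn1, which encode a latent TGF-beta binding protein and fibrillin-1, had values of -0.34 and -0.28 with no overlap and adjusted p of 0.161 and 0.169.

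Cells that also make elastin and the fibulins were followed through their markers. The 18 smooth muscle and pericyte markers summed to 729 to 1024 CPM in controls and 917 to 1165 CPM in mutants, with 0 called by edgeR, 2 at an unadjusted p under 0.05, 1 called by DESeq2 and 0 by limma-voom, and a median log2 fold change of 0.15. The one called by DESeq2 was Rgs5, a pericyte gene, which had a log2 fold change of 1.05 in edgeR (adjusted p = 0.0776). The 14 fibroblast markers summed to 1148 to 1672 CPM in controls and 1442 to 2136 CPM in mutants, with a median of 0.23. One of them rose, Col14a1, a fibril-associated collagen gene, from 93.4 ± 4.14 to 227 ± 21.2 CPM (log2 fold change 1.28, edgeR adjusted p = 0.00014). None of the markers on these 2 lists was at 0 counts in any library. Both sums were lowest in control replicate 3 among the controls, where Eln, Fbln2, Mgp, Bmx and Dkk2 were highest. Among the mutants both were highest in replicate 2, where Htra1, Mgp and Sema3g were highest. They were lowest in mutant replicate 3, at 917 and 1442 CPM, where Eln, Fbln2, Fbln5, Bmx, Mecom, Pcsk5 and Dkk2 were highest. The part of these cells in the values of Eln, Fbln2, Fbln5, Htra1 and Mgp was not tested.

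The 12 pan-endothelial markers summed to 9254 to 10191 CPM in controls and 9704 to 10133 CPM in mutants, with 1 lower and 1 higher. The called share was 16.7% and 6 showed no overlap, against 3.27% called and 20.6% with no overlap among all tested genes. The called markers were the angiopoietin receptor gene Tek, with a log2 fold change of -0.50, and the guidance receptor gene Robo4, with 0.43 (edgeR adjusted p = 0.0128 and 0.0263). Both calls ended without mutant replicate 2 (adjusted p = 0.076 and 0.127) or control replicate 3 (0.054 and 0.0897), and that of Robo4 also without control replicate 1 (0.0697) or mutant replicate 1 (0.0897). The 27 other arterial genes summed to 6192 to 6823 CPM in controls and 5359 to 5762 CPM in mutants. The fall of Cxcl12 alone, from 501 ± 65.5 to 128 ± 43.2 CPM (SD, n = 3 each), was close in size to the gap between these ranges. The 10 members summed to 4100 to 4430 and 3458 to 4117 CPM, a sum in which Eln holds the largest part. A gap between groups was not particular to arterial genes. The 10 general capillary genes summed to 9008 to 9473 CPM in controls and 5980 to 6865 CPM in mutants, with a median log2 fold change of -0.30. For 10 aerocyte genes the sums overlapped, at 2537 to 2880 and 2841 to 3077 CPM, with a median of -0.18. Of these genes 3 were called lower and 1 higher. The higher one, Apln, rose from 212 ± 21.0 to 687 ± 48.4 CPM (SD, n = 3 each) and is part of these sums. Their overlap thus does not show that the other aerocyte genes were unchanged.

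**Figure D4:**
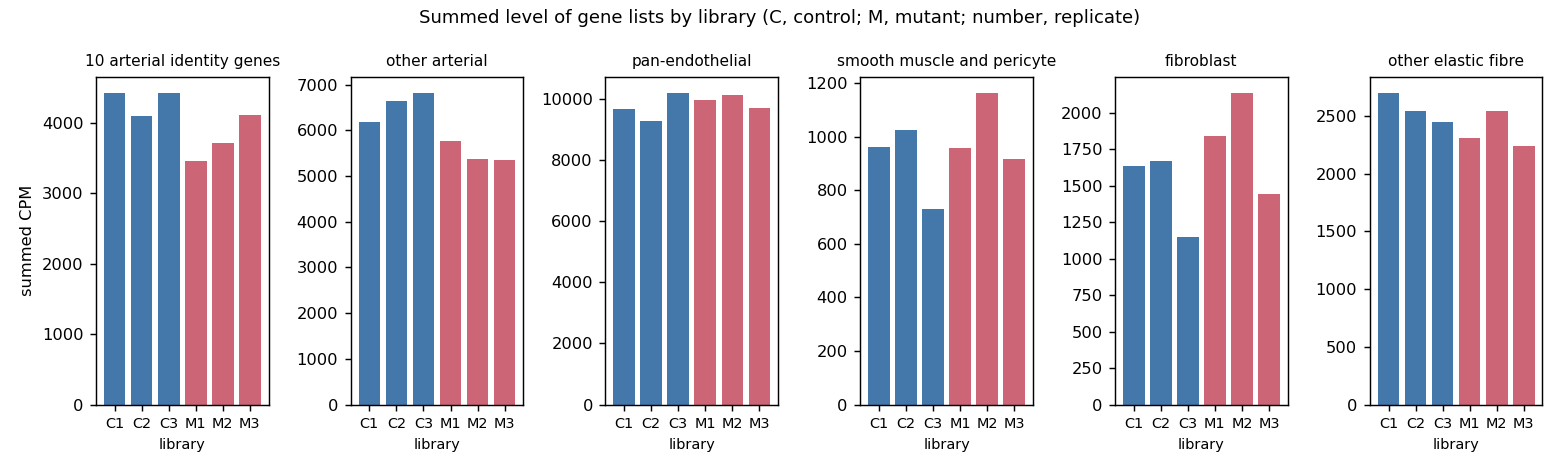
Summed CPM of 6 gene lists in each library, controls in blue and mutants in red, on axes from 0 that differ between panels. The pan-endothelial sums of the 2 groups overlap, the other arterial sums do not, and the smooth muscle, pericyte and fibroblast sums are lowest in control replicate 3. The gap in the other arterial sums is close in size to the fall of Cxcl12 alone.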

How the data were processed

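RNA of CD31-selected lung cells was sequenced from polyadenylated RNA with a TruSeq v2 kit, per the labels' protocols. The deposited values are raw gene counts per symbol, with no normalization, and per the submitters' processing notes the build was mm10 and DESeq2 was used, with no version or role. The sources used here do not name the aligner, counter or annotation, or the use of strand. Reads with no feature (53.9% to 58.2% of each library) and ambiguous reads (0.288% to 0.366%) were left out. The 95% exact (Clopper-Pearson) intervals of these shares, as of all counts, cover counting error only. A count of 3, taken as the floor, was 0.142 to 0.213 CPM.

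Counts were fitted over all genes in R 4.3.3 with edgeR 4.0.16 (filterByExpr, TMM factors, robust quasi-likelihood F test, two-sided, no covariate), with Benjamini-Hochberg adjustment over 14934 genes and calls at an adjusted p under 0.05. The SE was the size of the log2 fold change divided by the square root of F. The scripts were tested on data simulated with 200 changed genes. At changes of 1.5-, 2- and 4-fold, edgeR recovered 32.8%, 76.1% and 95.5% of them. False calls were 18 in edgeR, 38 in DESeq2 and 15 in limma-voom. Alternatives were RLE and upper-quartile factors, no low-count filter, DESeq2 1.42.0, limma-voom (limma 3.58.1), a replicate block, sex as a covariate (from X- and Y-linked transcripts) and each library left out. Replicate pairs differed by more than sampling noise (chi-square per degree of freedom at least 12.9). Exon lengths and coordinates are GENCODE M21 on GRCm38, the assembly of mm10. The members and gene lists were chosen with earlier results of these data known. Named genes were the members, Smad4, up to 4 genes per list with the smallest p, the most abundant markers of other cells, and for a called member the 2 genes of most alike profile. Other lists, fitted in the same way, covered venous (0 higher and 1 lower of 11), general capillary (1 and 4 of 10), aerocyte (1 and 3 of 10), lymphatic (1 and 0 of 6), mesothelial (0 of 5), cartilage (0 of 2), epithelial (0 of 12) and immune (0 of 10) genes. The last 4 lists had 0, 0, 0 and 3 genes at an unadjusted p under 0.05, and DESeq2 called 1 immune gene higher.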

Additional observations from a re-analysis of the deposited data

How the results depend on the processing

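The call and direction of Pcsk5 held in all 13 alternative fits, with log2 fold changes of -1.17 to -1.32. The count of members called was 2 (Pcsk5 and Bmx, both lower) with upper-quartile factors, no low-count filter, DESeq2 and the replicate block, and 1 in each fit without a library. The median log2 fold change of the members ranged from -0.20 to -0.058 over fits without a library. The count of all genes called was 755 in DESeq2 (443 higher, 312 lower), against 488, and 211 to 428 without a library, the lowest without mutant replicate 2, with 293 without control replicate 2 and 325 without control replicate 3. The count of other arterial genes called, 8, was 11 in DESeq2 (3 higher, 8 lower), 7 in limma-voom, 6 with the replicate block, 5 with sex as a covariate and 4 to 7 without a library. That of elastic fiber genes was 0 to 1 without a library, and that of smooth muscle and pericyte markers 1 in DESeq2 and with the replicate block. Signs turned for uncalled members near 0. Over the fits without a library, Fbln5 ranged from -0.059 (without control replicate 2) to 0.099, Htra1 from -0.092 (without mutant replicate 2, with -0.0092 without control replicate 2) to 0.20, Mecom from -0.057 (without control replicate 3) to 0.086 and Fbln2 from -0.19 to 0.0003 (without mutant replicate 1). The cause was not tested. The labels share replicate numbers, but deviations of same-numbered libraries correlated at -0.0096, 0.019 and 0.16 over genes, not every library correlated best with its own number, and with the replicate block 466 genes were called, with Bmx at an adjusted p of 0.0363, Sox17 at 0.108, Efnb2 at 0.0745 and Cxcr4 at 0.133.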

Other observations

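Among the controls, replicate 2 held the lowest value of 8 of the 10 members (Bmx, Sema3g, Fbln2, Fbln5, Htra1, Dkk2, Eln and Mgp) and the highest value of the other 2, Mecom and Pcsk5. It was also the library with the fewest assigned reads, at 14093564. Among the mutants, replicate 3 held the highest value of 7 members and replicate 1 of 0. Without control replicate 2 the median log2 fold change of the members was -0.20, against -0.12 with all libraries. The part of depth in this was not tested.

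Bmx lies on chromosome X, and the 6 pups were not of 1 sex. In the male libraries, replicate 1 of each group, it was at 25.4 CPM in the control and 18.6 CPM in the mutant, and in the female libraries at 25.3 and 32.1 CPM in controls and 16.7 and 20.3 CPM in mutants. With sex as a covariate its log2 fold change was -0.57 (edgeR adjusted p = 0.0741).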
